A study of Labrus bergylta with 77 samples.

Results

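Polymeric immunoglobulin receptor and secreted mucin transcripts were followed through larval and early juvenile development of the ballan wrasse, Labrus bergylta, a marine fish without a stomach that is reared as a cleaner fish for salmon farms. They were taken as the rows of the expression table with the identifier pIgRlike or the identifier of a pIgR sequence that carries a numeric prefix, called pIgR here, or with the gene name MUC2, MUC5B or MUC5AC in any letter case. This gave 10 of the table's 29932 rows. They are the 2 receptor sequences, 4 rows named MUC2 (LABE_00005597, LABE_00026018, LABE_00062112 and LABE_00062115), 3 rows named MUC5B (LABE_00005601, LABE_00052561 and LABE_00087749) and 1 row named MUC5AC (LABE_00062109). What the prefix of the pIgR identifier stands for is not given in the sources used here. Some of the mucin rows carry neighbouring identifiers, and whether these are separate genes or pieces of 1 gene model is not given either. Some of these neighbours carry unlike names, as MUC5AC LABE_00062109 and MUC2 LABE_00062112 do. The split of reads between the rows, and so the share of each mucin name, is therefore uncertain.

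Whole larvae were pooled and sequenced from poly(A)-selected RNA at 7 sampling stages, named BW0 and BW2 to BW7, to compare zooplankton with the standard live feed during early rearing. The plankton groups came from tanks B5, B7 and B9, and the control groups, fed rotifers and Artemia, from tanks B6, B8 and B10, with 2 pools per tank and stage. The BW0 group was 5 pools of unfed larvae taken from incubators at 4 days post hatch (dph) and a standard length of 4.0 mm. In all, 77 pools were measured, and the 2 pools of a tank and stage were averaged, which left 41 libraries: 3 tanks per diet at each fed stage and 5 BW0 pools.

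Larvae of the diets were matched by length rather than age. Plankton and control larvae were both 9 dph old at BW2. Plankton larvae were sampled at 18, 28 and 41 dph and control larvae at 16, 26 and 36 dph at BW3, BW4 and BW5. Both were 58 to 59 dph old at BW6 and 79 to 80 dph old at BW7. Plankton larvae measured 4.1 to 4.3 mm and control larvae 4.2 to 4.5 mm at BW2, and by BW7 they measured 26.4 to 27.9 mm and 26.5 to 27.6 mm. Every tank received dry feed from 40 dph beside the live feed and alone from 56 dph. At BW5 the plankton larvae had therefore met dry feed and the control larvae had not, so diet, age and first dry feed cannot be told apart there. BW0 RNA was extracted with TRIzol and all later RNA with QIAzol, so the step out of BW0 and the change of reagent cannot be told apart either.

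The polymeric immunoglobulin receptor is a transmembrane protein of epithelial cells. It binds polymeric antibody on the inner face of the epithelium, carries it across the cell and is cleaved at the outer surface, which releases the antibody with a piece of the receptor into the mucus. In teleost fish the antibodies concerned are IgM and the mucosal class IgT. MUC2, MUC5B and MUC5AC are gel-forming mucins, very large glycoproteins secreted by goblet and other mucous cells that build the mucus in which such antibody is held. In mammals MUC2 is the main mucin of the intestine, MUC5B is made in airways and salivary glands, and MUC5AC in airways and stomach. In common carp, a Muc5B transcript has been described mainly in skin and gills and a Muc2 transcript in the gut. Which tissue of the wrasse larva each row comes from cannot be read from whole animals, and in bulk samples more cells of a type and more RNA per cell cannot be told apart.

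Levels are given as TPM, transcript abundances scaled for transcript length and to the same total in every library, and differences as log2(TPM + 1) with the standard error from limma. The p-values were adjusted by the method of Benjamini and Hochberg, and differences with an adjusted p under 0.05 were called. The 22028 genes tested are those that reached 1 TPM in 3 or more of the 41 libraries. Of the 10 rows, 8 were tested. MUC5AC and MUC5B LABE_00052561 reached 1 TPM in no library and were not. Of the tested rows, pIgR, pIgRlike, Muc2 LABE_00005597 and the other two MUC5B rows reached 1 TPM only at BW3 or later. Their higher late levels are in part a condition of being tested, so the numbers of rows called are given as a description. Of the 77 pools, 9 correlated more closely with another group than with their own. Without these pools the same 23 of 48 stage steps described here passed.

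The pIgR row was close to undetected in newly hatched larvae and became a mid-ranking transcript of the whole animal by the end of the series. Its mean was 0.0450 TPM at BW0, 0.159 at BW2, 0.779 at BW3, 3.28 at BW4, 7.14 at BW5, 5.01 at BW6 and 9.27 TPM at BW7. The order by mean was therefore BW7, BW5, BW6, BW4, BW3, BW2 and BW0. The ranges of neighbours in that order overlapped from BW7 down to BW4 and again between BW2 and BW0, while BW3 stood apart from both BW4 and BW2. By its mean TPM it lay at percentile 2.14 of the tested genes at BW0, 34.1 at BW4, 59.4 at BW5 and 69.0 at BW7.

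**Figure D1:**
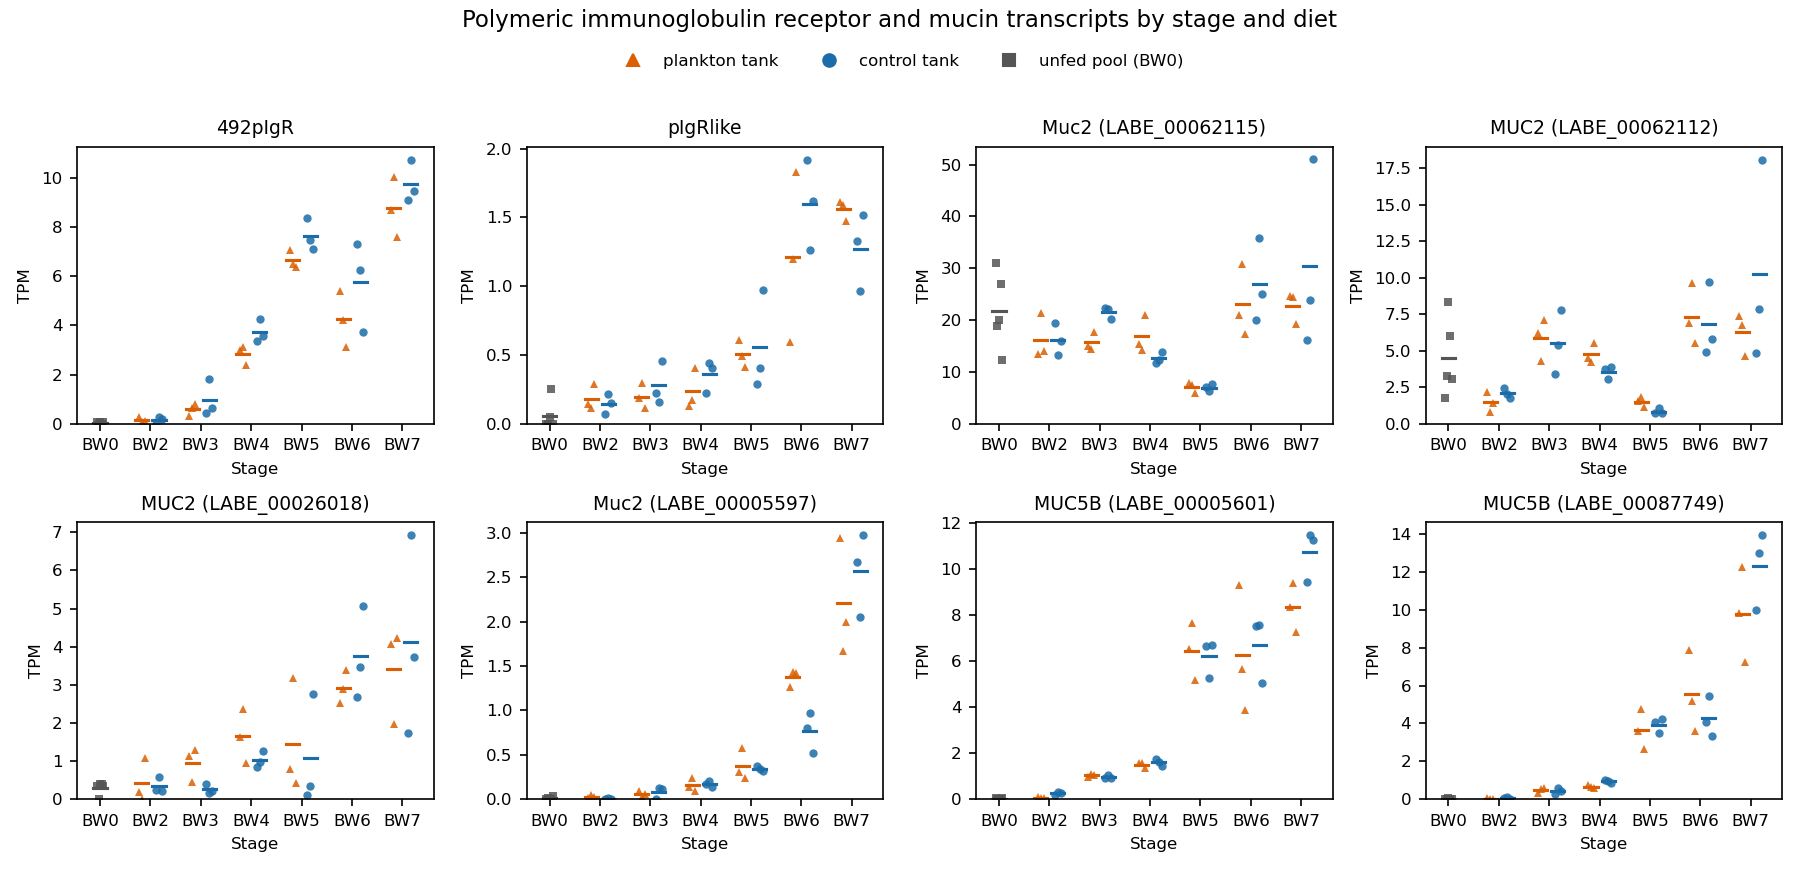
Level in TPM of the 8 tested rows at each stage, on a linear axis that starts at 0. Triangles are plankton tanks, circles control tanks, squares the BW0 pools, and horizontal lines group means; pIgR climbs to a mean of 9.27 TPM at BW7 with a lower BW6, while Muc2 LABE_00062115 is lowest at BW5 with a mean of 7.03 TPM.

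The pIgR row rose at each step from BW2 to BW5. At BW3 it had 0.798, 0.331 and 0.643 TPM in plankton tanks B5, B7 and B9 and 0.433, 1.83 and 0.639 TPM in control tanks B6, B8 and B10. At BW4 it had 2.99, 3.13 and 2.37 TPM in the plankton tanks and 3.35, 4.28 and 3.56 TPM in the control tanks. Every tank was higher at BW4 than at BW3 and the stages did not overlap. At BW5 the levels were 7.08, 6.49 and 6.36 TPM in the plankton tanks and 8.38, 7.45 and 7.10 TPM in the control tanks, again above every tank of BW4. The stage means differed 4.21-fold for BW4 over BW3 and 2.18-fold for BW5 over BW4. On the log2 scale the receptor rose by 0.58 ± 0.13 at BW3 (adjusted p = 0.000355), by 1.30 ± 0.13 at BW4 (adjusted p = 1.15e-08) and by 0.94 ± 0.13 at BW5 (adjusted p = 1.18e-06), each against the stage before. The size of the first step depends on the pseudocount, and with 0.1 in place of 1 the steps were 1.72, 2.10 and 1.12.

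The rise was interrupted at BW6, the first stage on dry feed alone. The 6 tanks had 3.13 to 7.30 TPM at BW6, with a median of 4.82, against 6.36 to 8.38 TPM at BW5, with a median of 7.09. The ranges overlapped, but each of the 6 tanks was lower at BW6 than it had been at BW5. The difference was -0.48 ± 0.13 on the log2 scale (adjusted p = 0.00464), and it was not called with a pseudocount of 0.1 in place of 1 (-0.56, adjusted p = 0.113). At BW7 the tanks had 7.60 to 10.7 TPM, with a median of 9.27. Every tank was higher than at BW6 and the ranges did not overlap, a rise of 0.81 ± 0.13 (adjusted p = 1.67e-05).

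pIgRlike, whose relation to the receptor is given only by its name, was lower than pIgR from BW3 on, and its only called step came later. At BW0 and BW2 its mean was not lower than that of pIgR (0.0450 TPM at BW0 and 0.159 TPM at BW2). The mean of pIgRlike was 0.0601 TPM at BW0, 0.165 at BW2, 0.238 at BW3, 0.297 at BW4, 0.530 at BW5, 1.40 at BW6 and 1.42 TPM at BW7. At BW6 it had 0.597, 1.20 and 1.83 TPM in plankton tanks B5, B7 and B9 and 1.92, 1.26 and 1.62 TPM in control tanks B6, B8 and B10. At BW5 it had 0.606, 0.490 and 0.414 TPM in the plankton tanks and 0.292, 0.405 and 0.973 TPM in the control tanks. Of the 6 tanks, 5 were higher at BW6, and tank B5 was the exception. pIgRlike rose at BW6 by 0.64 ± 0.11 (adjusted p = 3.16e-05). No other step of it was called, although that to BW5 passed after scaling by size factors (0.30, adjusted p = 0.0247). With a pseudocount of 0.1 its step to BW2 passed (0.87, adjusted p = 0.0238), as did that of pIgR (0.75, adjusted p = 0.0285). The step of pIgRlike to BW6 was of opposite sign to that of pIgR. The mean ratio of pIgRlike to pIgR was thus 0.313 ± 0.171 at BW6, against 0.0754 ± 0.0349 at BW5 (SD, n = 6 tanks each).

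Most antibody heavy-chain sequences rose at later steps than pIgR. IgM123, a hand-named IgM heavy-chain sequence of the table, had mean levels of 0.952 TPM at BW0, 0.563 at BW2, 0.357 at BW3, 0.175 at BW4, 0.873 at BW5, 7.82 at BW6 and 22.8 TPM at BW7. sIgM4, a sequence named for secreted IgM, had 0.817 TPM at BW5, 8.96 at BW6 and 35.6 TPM at BW7. Thus at BW4, where pIgR had a mean of 3.28 TPM, these sequences stood at 0.175 and 0.530 TPM. The list of other receptors and antibody sequences has 11 tested rows. Of these, 0 rose and 1 fell at BW3, none was called at BW4, 2 rose at BW5, 10 rose at BW6 and 9 rose at BW7. Apart from Cd300lf, the rows are sequences named for IgM, IgD or IgT, several for each. Whether these are pieces of the same transcripts is not given, so the counts are not of independent genes. The share of all tested genes that rose was 62.2% at BW3, 6.16% at BW4, 10.6% at BW5, 18.1% at BW6 and 11.3% at BW7. After scaling by size factors, 3 of the 11 rows fell at BW3 and 4 rose at BW5, with the other counts unchanged. The share of all tested genes after scaling is not given, so these scaled counts stand without one. IgM123 rose by 2.25 ± 0.19, sIgM4 by 2.47 ± 0.23 and IgD1234 by 1.34 ± 0.12 at BW6, with adjusted p-values of 5.15e-11, 3.09e-10 and 2.22e-10. IgT1234 stayed lower, with a mean of 0.608 TPM at BW0, 0.790 TPM at BW6 and 1.47 TPM at BW7, its highest. sIgT, a sequence named for secreted IgT, had its highest mean at BW0, unlike IgT1234. Its mean was 4.69 TPM at BW0, 1.63 at BW2, 0.123 at BW3, 0.243 at BW4, 0.430 at BW5, 1.76 at BW6 and 2.80 TPM at BW7. It was scattered, from 1.49 to 9.49 TPM among the BW0 pools and from 0 to 7.47 TPM among the BW7 tanks, and none of its steps was called.

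**Figure D2:**
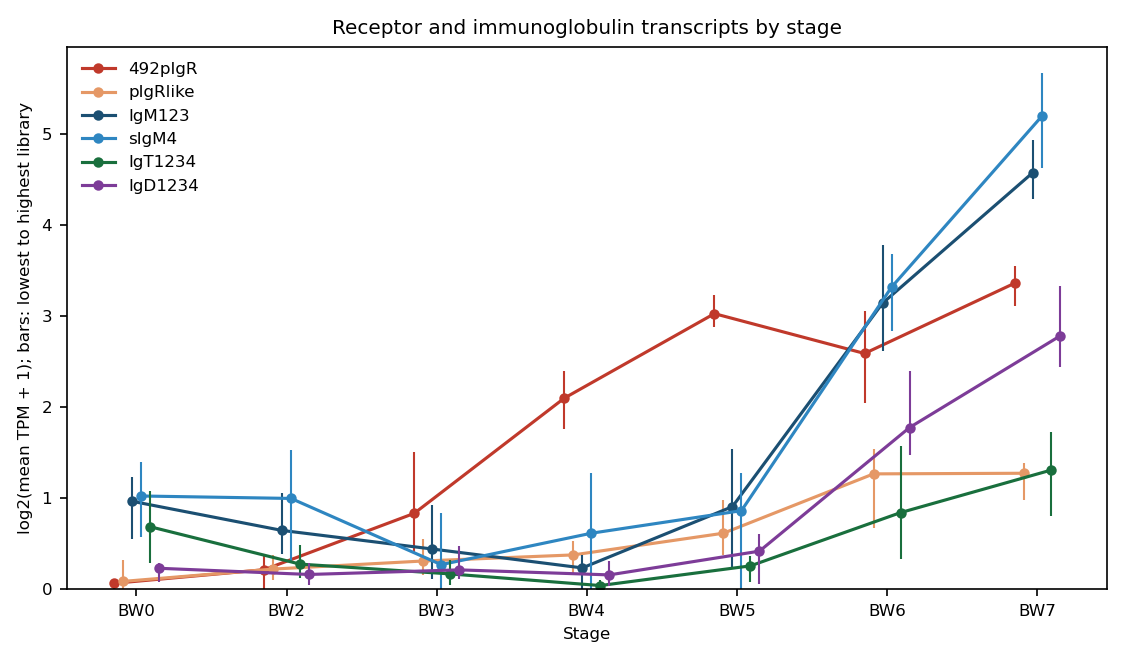
Mean level by stage, as log2(TPM + 1), of the receptor sequences pIgR (shown with its numeric prefix) and pIgRlike and of 4 immunoglobulin heavy-chain sequences; bars run from the lowest to the highest library. pIgR reaches 7.14 TPM at BW5 while IgM123 is at 0.873 TPM, and by BW7 IgM123 stands above it at 22.8 TPM.

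Leukocyte markers (PTPRC, CORO1A, LCP1 and SPI1, 5 rows) moved with several of these steps. Of the 5 rows, 5 rose at BW3, 0 at BW4, 4 at BW5, 5 at BW6 and 2 at BW7. Among all tested genes, 62.2% rose at BW3, 6.16% at BW4, 10.6% at BW5, 18.1% at BW6 and 11.3% at BW7. At BW3, where most tested genes rose, the count says little about leukocytes. After scaling by size factors the counts were 2, 1, 5, 5 and 3, for which no share of all tested genes is given. The mean summed level of the leukocyte markers was 20.7 TPM at BW2, 39.5 at BW3, 44.1 at BW4 and 71.3 TPM at BW5. It was 146 to 167 TPM at BW6, against 42.2 to 109 TPM at BW5, and no marker of the list was at 0 in either stage. Of the B-cell markers, 1 of 3 had a row, PAX5, whose summed level was 0 to 0.105 TPM at BW6 and 0 to 0.0529 TPM at BW5. The part of leukocyte number in the steps of pIgR, pIgRlike and the immunoglobulins was not tested.

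Among the 8 rows named MUC2, MUC5B or MUC5AC, Muc2 LABE_00062115 was the most abundant. Muc13 LABE_00066417, a row of the list of other mucins, was higher at each stage, with means of 79.3 TPM at BW0 and 79.8 TPM at BW7. Muc2 LABE_00062115 was already high before first feeding. Its mean was 21.8 TPM at BW0, 16.2 at BW2, 18.6 at BW3, 14.8 at BW4, 7.03 at BW5, 25.0 at BW6 and 26.6 TPM at BW7. Among the tested genes it lay at percentile 79.5 at BW2, 58.9 at BW5 and 87.4 at BW7. It reached at least 1 TPM in all 41 libraries, and from BW2 to BW4 no step was called. Its level then dipped at BW5 and recovered at BW6.

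At BW5, Muc2 LABE_00062115 had 7.96, 7.40 and 5.90 TPM in plankton tanks B5, B7 and B9 and 7.00, 6.32 and 7.62 TPM in control tanks B6, B8 and B10. At BW4 it had 15.4, 14.3 and 21.1 TPM in the plankton tanks and 11.6, 12.2 and 13.9 TPM in the control tanks. All 6 tanks were lower at BW5, in both diets, and the ranges of the stages did not overlap. The mean at BW5 was 0.477 of that at BW4, a difference of -0.95 ± 0.20 on the log2 scale (adjusted p = 0.000291). At BW6 it had 21.1, 30.9 and 17.3 TPM in the plankton tanks and 19.96, 35.8 and 25.0 TPM in the control tanks. All 6 were higher than at BW5, again without overlap, a 3.56-fold difference of means and 1.66 ± 0.20 on the log2 scale (adjusted p = 9.79e-08). At BW7 the spread widened, from 16.2 TPM in tank B6 to 51.1 TPM in tank B10, with a median of 24.1. The difference of BW7 from BW2 was 0.60 ± 0.20 (adjusted p = 0.00897) and was not called without tank B10 (0.38, adjusted p = 0.11) or without tank B5 (0.52, adjusted p = 0.0655).

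MUC2 LABE_00062112 had the same dip at a lower level. Its mean was 4.50 TPM at BW0, 1.77 at BW2, 5.71 at BW3, 4.15 at BW4, 1.18 at BW5, 7.08 at BW6 and 8.27 TPM at BW7. At BW5 it had 1.58, 1.87 and 1.12 TPM in plankton tanks B5, B7 and B9 and 0.706, 1.07 and 0.736 TPM in control tanks B6, B8 and B10. The tanks of BW4 had 3.04 to 5.52 TPM and those of BW6 4.91 to 9.70 TPM, so BW5 lay below both without overlap. The fall at BW5 was -1.25 ± 0.25 (adjusted p = 0.00011) and the rise at BW6 was 1.88 ± 0.25 (adjusted p = 3.08e-07), a 6.00-fold difference of means. This row also rose at BW3, by 1.27 ± 0.25 (adjusted p = 4.67e-05). It was lower at BW2 than at BW0 by 0.89 ± 0.26 (adjusted p = 0.00412), a call that was lost after scaling by size factors (-0.53, adjusted p = 0.0834). Without the 9 pools whose titles are written with a space after BW, the difference was -0.36. These include 4 of the 5 BW0 pools, so the single BW0 pool left, R3, is assumed to vary like the other groups. R3 correlated more closely with the BW2 control group (mean r = 0.967) than with the other BW0 pools (0.963). This setting therefore cannot decide the call.

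The other two MUC2 rows had lower means over most stages. Muc2 LABE_00005597 was not lower at BW5 and had means of 0.0106 TPM at BW0, 0.0156 at BW2, 0.0710 at BW3, 0.163 at BW4, 0.356 at BW5, 1.07 at BW6 and 2.39 TPM at BW7. It rose by 0.22 ± 0.08 at BW5 (adjusted p = 0.0275), by 0.59 ± 0.08 at BW6 (adjusted p = 7.47e-07) and by 0.71 ± 0.08 at BW7 (adjusted p = 5.28e-08). The first of these calls was lost without tank B6, B7 or B10, at adjusted p-values of 0.0964, 0.0808 and 0.07. MUC2 LABE_00026018 was the most scattered row, with an SD between pools of a tank of 0.554 on the log2 scale, against 0.158 for Muc2 LABE_00005597. At BW5 it had 0.784, 3.16 and 0.425 TPM in plankton tanks B5, B7 and B9 and 0.0981, 0.335 and 2.77 TPM in control tanks B6, B8 and B10. Of the 6 tanks, 4 were lower at BW5 than at BW4 and 2 were higher, with medians of 0.604 and 1.12 TPM, and the difference was -0.21 (95% interval -0.76 to 0.33, adjusted p = 0.523). At BW6 its range was 2.51 to 5.06 TPM, which overlapped with BW5 through tanks B7 and B10, and the step was 1.11 ± 0.27 (adjusted p = 0.00117).

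Summed levels of surface and gut epithelium markers at BW5 overlapped with those at BW4. The summed level of the skin and surface epithelium list (20 rows, among them EPCAM, CDH1 and KRT8) was 1192 to 1928 TPM at BW5 and 1254 to 1863 TPM at BW4. That of the intestinal epithelium list (17 rows, among them FABP2, CDH17 and VIL1) was 1301 to 1750 TPM at BW5 and 1308 to 1763 TPM at BW4. By row, 1 of 20 skin and surface rows rose and 6 fell at BW5, and 0 of 17 intestinal rows rose and 4 fell. Of all tested genes, 10.6% rose and 38.6% fell. After scaling by size factors, 7 skin and surface rows rose and 6 fell, and 3 intestinal rows rose and 1 fell. This scaling moved the median gene at BW5 from -0.22 to 0.009 on the log2 scale. The share of all tested genes called after scaling is not given here. Scaled counts in this paragraph are therefore not to be read against the shares given. The goblet-cell list of AGR2, SPDEF, FCGBP and FOXA3 (10 rows) had a higher sum at BW5 than at BW4 or BW6. Its summed level was 622 to 905 TPM at BW5, 276 to 407 TPM at BW4 and 268 to 419 TPM at BW6. Most of the sum was agr2, with a mean of 676 TPM at BW5 and 262 TPM at BW6. One FCGBP row of the list, LABE_00023217, was listed at 0 in every library. By row, 5 of 7 tested rows rose and 1 fell at BW5, and 2 rose and 1 fell at BW6. At BW6, 18.1% of all tested genes rose and 23.4% fell. After scaling by size factors, the goblet-cell counts were 5 and 0 at BW5 and 3 and 1 at BW6. The part of these cell types in the steps of the mucins was not tested.

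The MUC5B rows had no dip at BW5, unlike Muc2 LABE_00062115 and MUC2 LABE_00062112. MUC5B LABE_00005601 was almost undetected at first and rose in steps, with means of 0.0210 TPM at BW0, 0.153 at BW2, 0.994 at BW3, 1.56 at BW4, 6.33 at BW5, 6.50 at BW6 and 9.54 TPM at BW7. MUC5B LABE_00087749 ran below it until BW6, with means of 0.0203, 0.0411, 0.439, 0.799, 3.81, 4.93 and 11.1 TPM over the same stages. The BW7 mean of MUC5B LABE_00005601 was 62.3-fold that of BW2.

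Both MUC5B rows rose at BW5, where the abundant MUC2 rows fell. At BW5, MUC5B LABE_00005601 had 6.52, 7.66 and 5.20 TPM in plankton tanks B5, B7 and B9 and 6.66, 5.26 and 6.71 TPM in control tanks B6, B8 and B10. At BW4 it had 1.56, 1.58 and 1.37 TPM in the plankton tanks and 1.76, 1.63 and 1.46 TPM in the control tanks. The BW4 tanks lay close together and far under every BW5 tank. The means differed 4.07-fold, and the step was 1.51 ± 0.11 on the log2 scale (adjusted p = 5.36e-12). For MUC5B LABE_00087749 the range was 2.66 to 4.76 TPM at BW5, against 0.597 to 1.004 TPM at BW4, a step of 1.41 ± 0.13 (adjusted p = 1.96e-10).

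Both MUC5B rows had also risen at BW3, by 0.79 ± 0.11 for LABE_00005601 (adjusted p = 8.89e-07; 2.23 with a pseudocount of 0.1, against 1.95 at BW5) and by 0.46 ± 0.13 for LABE_00087749 (adjusted p = 0.00179). The step to BW4 was 0.36 ± 0.11 for LABE_00005601 (adjusted p = 0.0179), a call lost without tank B6 (adjusted p = 0.0861) or B7 (0.0795). It was 0.32 ± 0.13 for LABE_00087749 (adjusted p = 0.0526), which fell under the threshold with tank as a replicate block (adjusted p = 0.0448). Neither row was called at BW6, with adjusted p-values of 0.992 and 0.0822, although LABE_00087749 passed there after scaling by size factors (0.36, adjusted p = 0.0273). At BW7 LABE_00005601 rose by 0.52 ± 0.11 (adjusted p = 0.000578) and LABE_00087749 by 1.04 ± 0.13 (adjusted p = 1.22e-07). With the larger late step of LABE_00087749, its mean ratio to LABE_00005601 was 0.436 at BW3, 0.511 at BW4, 0.600 at BW5, 0.770 at BW6 and 1.15 ± 0.115 at BW7 (SD, n = 6 tanks).

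**Figure D3:**
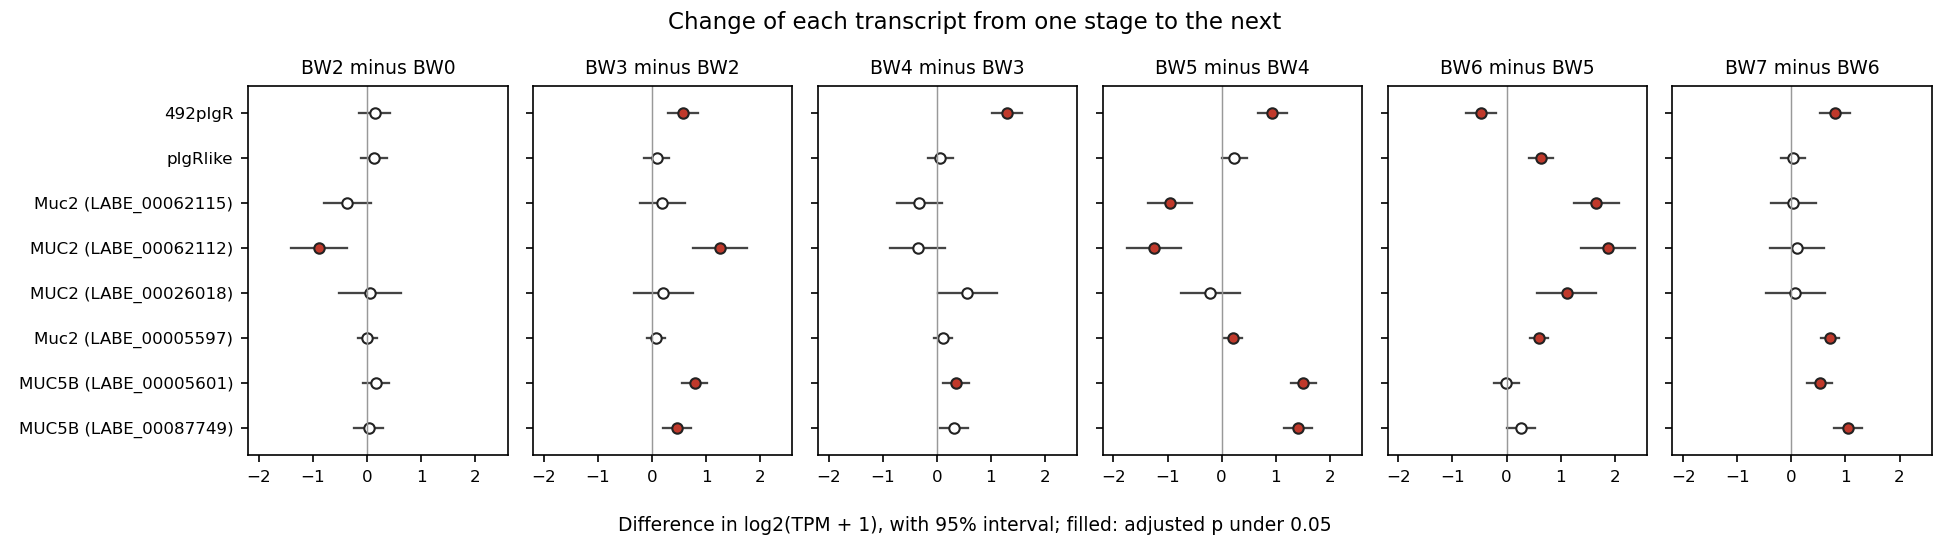
Difference of each stage from the one before, on the log2(TPM + 1) scale, for the 8 tested rows, with both diets weighted equally; bars are 95% intervals and filled points passed at an adjusted p under 0.05. At BW5 the points of Muc2 LABE_00062115 and MUC2 LABE_00062112 lie at -0.95 and -1.25 while those of the MUC5B rows lie at 1.51 and 1.41.

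The third MUC5B row, LABE_00052561, had 0 to 0.104 TPM and was listed at 0 in 25 of the 41 libraries. MUC5AC had 0 to 0.497 TPM and was listed at 0 in 6 libraries. Its mean was highest at BW3, at 0.209 TPM, and lowest at BW5, at 0.0205 TPM, where 4 of the 6 tanks were at 0. The ranges of both rows overlapped at every step between adjoining stages, and neither was tested at the filter used. With no filter on low values, 1 of 40 differences of these rows passed, that of MUC5AC at BW5 from BW0 (-0.18, adjusted p = 0.0489).

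Counted over the tested rows, 1 fell at BW2, 4 rose at BW3, 2 rose at BW4, 4 rose and 2 fell at BW5, 5 rose and 1 fell at BW6, and 4 rose at BW7. Of all tested genes, 56.4% fell at BW2, 62.2% rose at BW3, 6.16% rose at BW4, 10.6% rose and 38.6% fell at BW5, 18.1% rose and 23.4% fell at BW6, and 11.3% rose at BW7. The share called in either direction was 60.5% at BW2, 67.8% at BW3, 28.7% at BW4, 49.2% at BW5, 41.6% at BW6 and 36.5% at BW7. The share at BW2 rests on 5 BW0 pools, most of them with spaced titles. Without the spaced titles only BW0 pool R3 is left, which correlated more closely with the BW2 control group. A count without them therefore cannot be set against this share. So much of the transcriptome changed at each step that a count of this kind says little about receptor or mucin rows. Between BW7 and BW2, 8 of 8 tested rows were higher, against 33.4% of all tested genes (72.3% in either direction), and this direction was in part set by the filter on low values. TPM are shares of a total, and the median gene moved by -0.35 at BW2, 0.41 at BW3, -0.12 at BW4 and -0.22 at BW5 on the log2 scale. Scaling by size factors took these shifts out, and each of the 4 rows called at BW3 was still called.

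Set against the unfed BW0 larvae, the number of rows called was 1 of 8 at BW2, 3 at BW3, 6 at BW4 and 7 each at BW5, BW6 and BW7. The share of all tested genes called was 60.5%, 35.3%, 51.1%, 68.9%, 73% and 77.6% in that order. Some of these row calls depended on the processing. At BW4 the call of Muc2 LABE_00005597 was kept in 5 of 21 alternative settings and that of pIgRlike in 10. The call of MUC2 LABE_00062112 was kept in 14 of 21 at BW6 and in 16 at BW7. At BW5, Muc2 LABE_00062115 was 1.45 ± 0.21 below BW0 (adjusted p = 4.87e-07) and MUC2 LABE_00062112 was 1.23 ± 0.26 below it (adjusted p = 1e-04). Without the pools with spaced titles, which leaves R3 as the only BW0 pool, MUC2 LABE_00062112 differed by -0.38. At BW7, Muc2 LABE_00062115 differed from BW0 by 0.24 ± 0.21 (adjusted p = 0.307), but by 0.82 after scaling by size factors (adjusted p = 0.00538). These differences carry the change of extraction reagent.

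The composition of the 8 rows named MUC2, MUC5B or MUC5AC changed with these opposite steps. Rows of other mucins are not in the sums and shares below. Among those left out, MUC19 LABE_00026019 had a mean of 1.44 TPM at BW5 and 8.20 TPM at BW7. Muc13 LABE_00066417 had 63.5 TPM at BW5 and 79.8 TPM at BW7. The 8 mucin rows together had a mean of 26.8 TPM at BW0, 18.7 at BW2, 26.7 at BW3, 23.0 at BW4, 20.02 at BW5, 48.1 at BW6 and 61.8 TPM at BW7. Rows named MUC5B made up 0.251% of that sum at BW0, 1.18% at BW2, 5.62% at BW3, 10.8% at BW4, 51.0% at BW5, 24.0% at BW6 and 34.7% at BW7. At BW5 the MUC5B share was 51.0% ± 3.14 (SD, n = 6 tanks), with every tank between 48.7% and 56.8%. No tank of any other stage exceeded 43.1%. The MUC5B and MUC2 sums were thus about level at BW5, at 10.2 ± 1.63 and 9.83 ± 2.19 TPM, while MUC2 led at all other stages. MUC5AC made up 0.113% to 0.810% of the sum by stage mean.

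**Figure D4:**
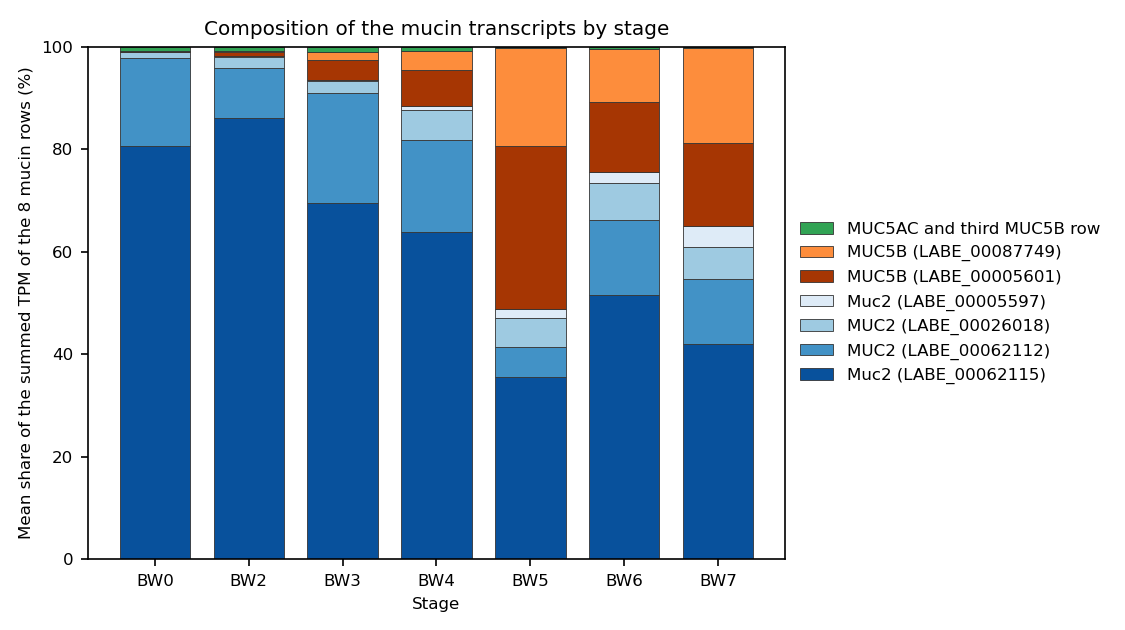
Mean share of each of the 8 rows named MUC2, MUC5B or MUC5AC in their summed TPM at each stage, in percent, as stacked bars from 0 to 100. Other mucins are not included. Muc2 LABE_00062115 takes 80.7% at BW0, 86.2% at BW2, 35.6% at BW5 and 42.0% at BW7, and the rows named MUC5B together take 51.0% at BW5.

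Diet gave no called difference in any tested row at any stage. With 8 rows at 6 stages, 0 of 48 differences of plankton from control passed in limma, and 1 had an unadjusted p under 0.05. The share of all tested genes called was 26.7% at BW2, 0.291% at BW3, 0.645% at BW4, 0.291% at BW5, 0.699% at BW6 and 0.0681% at BW7. An unadjusted p under 0.05 was reached by 37.1%, 6.05%, 6.52%, 4.79%, 7.84% and 3.78% of all tested genes from BW2 to BW7. The 95% intervals of the differences reached from 0.236 to 0.772 log2 units to either side, so smaller diet effects could not be resolved with 3 tanks per diet. For rows far under 1 TPM, log2(TPM + 1) can differ only a little, so the intervals do not bound fold differences there. Muc2 LABE_00005597 at BW2, for example, averaged 0.0274 TPM in plankton tanks and 0.00376 TPM in control tanks, a difference of 0.03. The change of the diet difference between the live-feed stages (BW2 to BW5) and the dry-feed stages (BW6 and BW7) was called in 0 of 8 rows, against 0.123% of all tested genes, and none of the 8 had an unadjusted p under 0.05, against 7.43% of all tested genes.

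The difference with the smallest p was that of Muc2 LABE_00005597 at BW6. It had 1.27, 1.43 and 1.42 TPM in plankton tanks B5, B7 and B9, against 0.805, 0.967 and 0.524 TPM in control tanks B6, B8 and B10. The ranges did not overlap. The difference was 0.43 ± 0.12 (95% interval 0.20 to 0.67, limma adjusted p = 0.0791), which missed the threshold. The difference passed with no filter on low values, with each pool as its own replicate and without the 9 pools closer to another group. Pools of a tank are not independent. At BW6 the pool left out, plankton pool B9 R2, was chosen for its likeness to the control group. These last settings therefore add no support for a diet difference. At BW7 the same row had 2.94, 1.67 and 2.00 TPM in plankton tanks, against 2.67, 2.06 and 2.97 TPM in control tanks. There the ranges overlapped and the difference was -0.17 ± 0.12 (adjusted p = 1).

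The pIgR row was lower in plankton than in control tanks at BW4 and BW5 without overlap of the ranges. At BW4 it averaged 2.83 ± 0.40 TPM in plankton tanks and 3.73 ± 0.49 TPM in control tanks, and at BW5 it averaged 6.64 ± 0.38 TPM in plankton tanks and 7.64 ± 0.66 TPM in control tanks (SD, n = 3 each). The differences were -0.30 (95% interval -0.69 to 0.08, adjusted p = 0.903) and -0.18 (95% interval -0.56 to 0.21, adjusted p = 1). At these stages the plankton larvae were also 2 and 5 days older. At BW6 and BW7 the ranges overlapped.

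MUC5B LABE_00005601 was lower in plankton tanks at the first and the last fed stage. At BW7 it had 8.38, 9.39 and 7.28 TPM in plankton tanks, against 9.44, 11.5 and 11.3 TPM in control tanks, ranges that were apart by a small margin. The difference was -0.33 (95% interval -0.66 to 0.00, adjusted p = 1). At BW2 the levels were 0.0775, 0.0569 and 0.0457 TPM in plankton tanks, against 0.163, 0.305 and 0.272 TPM in control tanks, and the difference was -0.23 (adjusted p = 0.317). At so low a level the pseudocount decides the size, and with 0.1 in place of 1 the BW2 difference was -1.09 and passed (adjusted p = 0.000407).

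Plankton and control ranges were apart in 12 of the 48 comparisons of row and stage, against 19.0% of all such comparisons over the tested genes. By stage they were apart in 2, 2, 4, 2, 1 and 1 of the 8 rows from BW2 to BW7, against 31.6%, 11.6%, 30.3%, 14.4%, 12.4% and 13.5% of all tested genes. Directions were mixed. At BW4, for example, Muc2 LABE_00062115 averaged 16.9 ± 3.6 TPM in plankton tanks and 12.6 ± 1.2 TPM in control tanks, whereas at BW3 it averaged 15.7 ± 1.7 TPM in plankton tanks and 21.5 ± 1.2 TPM in control tanks (SD, n = 3 each).

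**Figure D5:**
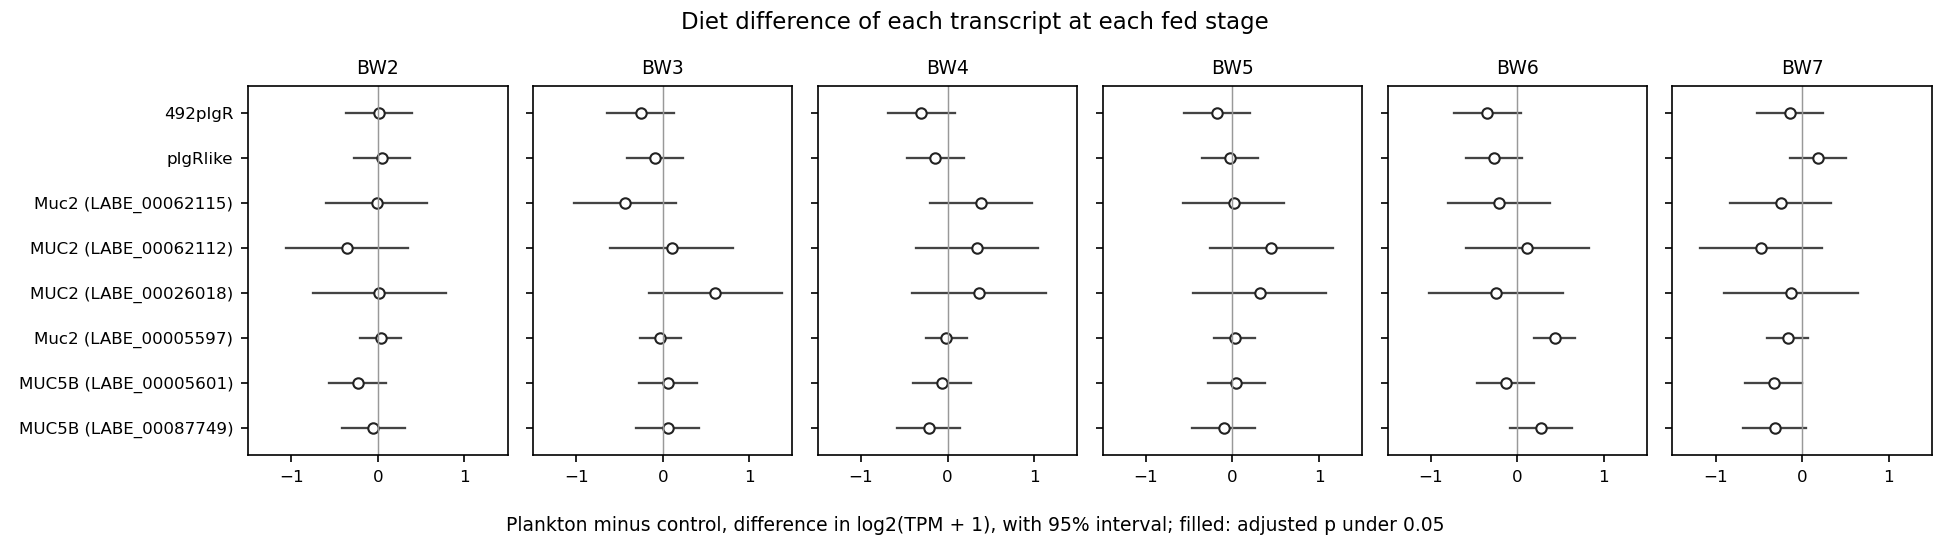
Difference of plankton from control tanks on the log2(TPM + 1) scale for the 8 tested rows at each fed stage, with 95% intervals; a filled point would mark an adjusted p under 0.05, and there is none. The interval farthest from 0 is that of Muc2 LABE_00005597 at BW6, at 0.20 to 0.67.

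Genes that make, process or accompany mucus were examined together with the other receptors and antibody sequences, as a list of 83 rows, 72 of them tested. Between BW7 and BW2, 54 of them were higher and 9 lower, while 33.4% of all tested genes were higher and 38.9% lower. The 72 rows had a median difference of 0.80 against -0.06 over all tested genes. Some of them, such as FCGBP LABE_00002036 (0.00678 TPM at BW2 and 16.4 TPM at BW7), passed the filter through late stages. The higher late levels of such rows are in part a condition of being tested. Proteins of mucin folding, secretion and mucus binding gave 20 higher and 1 lower of 23. FCGBP LABE_00056722, a mucus protein that is cross-linked with MUC2 in mammals, had a mean of 85.7 TPM at BW7 and 1.52 TPM at BW2, a rise of 5.15 ± 0.14 (adjusted p = 9.77e-25). FCGBP LABE_00067424 rose by 3.56 ± 0.19 (adjusted p = 7.22e-17). Other membrane and secreted mucins gave 5 higher of 5, and enzymes of mucin O-glycosylation 12 higher and 2 lower of 18. These counts came to 20 and 1, 5 and 0, and 15 and 2 after scaling by size factors. Shares of all tested genes after scaling are not given here. The other receptors and antibody sequences are Cd300lf and several sequences for each heavy chain. They gave 10 higher and 0 lower of 11, with a median difference of 2.89. Their counts were the same after scaling by size factors.

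Transcription factors of goblet cells were divided, with 7 higher and 6 lower of 15 at BW7 against BW2. foxa2 LABE_00058948 was 1.86 ± 0.10 lower on the log2 scale (adjusted p = 1.51e-16), with a mean of 0.102 TPM at BW7 and 3.12 TPM at BW2. Both rows of ATOH1, which sets secretory fate in the mammalian gut, fell, by 1.82 ± 0.11 (adjusted p = 1.48e-15) and 2.12 ± 0.18 (adjusted p = 2.41e-12). ATOH1 also acts in hair cells and neurons, and whole larvae do not separate these. The SPDEF rows, a factor of goblet-cell maturation, went opposite ways, LABE_00010120 by 1.15 ± 0.09 (adjusted p = 3.18e-13) and LABE_00001647 by -0.70 ± 0.15 (adjusted p = 0.000158).

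At the BW5 step, 9 of 23 folding and secretion rows rose and none fell, while 10.6% of all tested genes rose and 38.6% fell. agr2, a disulfide isomerase needed for mucin folding in mice, had means of 120 TPM at BW2, 173 at BW3, 331 at BW4, 676 at BW5, 262 at BW6 and 344 TPM at BW7. It rose by 1.02 ± 0.14 at BW5 (adjusted p = 4.88e-07) and fell by 1.36 ± 0.14 at BW6 (adjusted p = 2.45e-09). FCGBP LABE_00056722 rose at BW3, by 2.37 ± 0.14 (adjusted p = 4.56e-14), and at BW5, by 1.61 ± 0.14 (adjusted p = 8.6e-11). ST3GAL1 LABE_00056095, a sialyltransferase that caps mucin-type glycans, had a mean of 28.8 TPM at BW5 and 2.86 TPM at BW4, a rise of 2.88 ± 0.16 (adjusted p = 7.17e-15). At BW6, 11 of 23 folding and secretion rows rose and 3 fell, while 18.1% of all tested genes rose and 23.4% fell. MUC19 LABE_00026019, a gel-forming mucin whose identifier adjoins that of MUC2 LABE_00026018, rose by 1.66 ± 0.26 to a mean of 6.43 TPM (adjusted p = 5.09e-06).

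Of the 72 tested rows, 9 differed between diets at BW2, where 4 were higher and 5 lower in plankton tanks, and none was called at a later stage. The lower ones included FCGBP LABE_00056722 (-0.79 ± 0.20, adjusted p = 0.00263), ATOH1 LABE_00027155 (-1.01 ± 0.25, adjusted p = 0.00281) and agr2 (-0.64 ± 0.19, adjusted p = 0.013). FCGBP LABE_00056722 and agr2 were the 2 lower of 23 folding and secretion rows, and after scaling by size factors 1 of the 23 was lower. The higher ones included foxa2 LABE_00058948 (0.58 ± 0.15, adjusted p = 0.0037), Sytl2 LABE_00004673 (0.39 ± 0.11, adjusted p = 0.00748) and TM-IgD (0.94 ± 0.29, adjusted p = 0.015). Of all tested genes, 9.49% were higher and 17.2% lower in plankton tanks at BW2. Some marker sums differed there too. The intestinal epithelium list summed to 310 to 623 TPM in plankton tanks and 1059 to 1413 TPM in control tanks, the goblet-cell list to 83.9 to 112 TPM in plankton tanks and 141 to 164 TPM in control tanks, and the liver list to 150 to 325 TPM in plankton tanks and 387 to 419 TPM in control tanks. The ranges of these lists did not overlap. By row, 0 of 17 intestinal, 0 of 7 goblet-cell and 0 of 5 liver rows were higher, and 3, 2 and 4 were lower. After scaling by size factors, 3 intestinal rows were higher and 3 lower, while 1 goblet-cell and 4 liver rows were lower. No share of all tested genes is given after scaling, so the scaled counts in this paragraph stand without one. Sums of the skin and surface list (1030 to 1185 TPM in plankton tanks, 1060 to 1175 TPM in control tanks) overlapped. So did those of the leukocyte list (16.7 to 23.1 TPM and 18.4 to 23.4 TPM). The part of these cell types in the diet differences was not tested.

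The pIgR row and the MUC5B rows varied together more closely than with the abundant MUC2 rows. Over the 41 libraries, which share stages and tanks, Pearson's r on the log2 scale was 0.973 between the MUC5B rows, 0.957 between pIgR and MUC5B LABE_00005601 and 0.918 between pIgR and MUC5B LABE_00087749. After the mean of each stage and diet group was taken off, these were 0.900, 0.638 and 0.614. The r between pIgR and Muc2 LABE_00062115 was -0.125, and -0.03 after group means were taken off. MUC5B LABE_00087749 gave 0.329 with MUC2 LABE_00062112 and 0.109 with Muc2 LABE_00062115, and 0.388 and 0.351 after group means were taken off. For MUC5B LABE_00005601 the values were 0.251 and -0.019 over the libraries, and 0.155 and 0.179 after group means were taken off. Muc2 LABE_00005597, whose identifier lies near that of MUC5B LABE_00005601, gave 0.825 with that row and 0.915 with MUC5B LABE_00087749, but 0.160 and 0.205 after group means were taken off. The abundant MUC2 rows gave 0.749 with each other, and 0.446 after group means were taken off. pIgRlike followed pIgR over the stages (0.743) but not within groups (-0.339).

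The genes whose pattern over the 41 libraries was most like a row were sought among 14903 named genes with at least 5 TPM in a library (14904 for pIgRlike). For pIgR they were OLFML3 (r = 0.990), ELN (0.983), lmna (0.983), PRSS23 (0.974) and NFIX (0.973). After group means were taken off, they were Col1a2 LABE_00016965 (0.803), COL6A3 (0.776) and COL18A1 (0.775), all collagen chains. For pIgRlike they were LBP (0.951), SELP (0.947), Cd74 (0.946), Lcp2 (0.946) and C1QC (0.946), and within groups CD83 (0.708), CMKLR1 (0.705) and PARP14 (0.691). Cd74, the invariant chain of MHC class II, had a mean of 225 TPM at BW6 and 30.1 TPM at BW5.

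For MUC5B LABE_00005601 the nearest were CPZ (0.987), MYOZ1 (0.981), ELN (0.978), CPXM2 (0.978) and the keratin Krt17 (0.976). Within groups they were MUC5B LABE_00087749 (0.900), Fucolectin-1 (0.827) and METTL21EP (0.822). Muc2 LABE_00062115 had no neighbour as close. The highest were IVL LABE_00062114 (0.754), whose identifier adjoins its own, and MUC2 LABE_00062112 (0.749), whose identifier lies near it, then cldnd (0.703) and Nfkbia (0.694). IVL LABE_00062114 shared the dip, with means of 33.8 TPM at BW4, 9.82 at BW5 and 55.1 TPM at BW6. Whether it is a separate gene from these MUC2 rows is not given, and it was not counted in the mucin sums and shares. Within groups they were snai1 (0.637), a nattectin-like lectin (0.627) and C1qtnf9 (0.619). With many libraries of the same stages, high coefficients are common among genes that change over development, and they carry no test here.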

How the data were processed

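Whole-larva pools were sequenced after oligo(dT) enrichment, per the labels' protocols. The authors deposited TPM per gene and pool, and each deposited column of TPM sums to 1e+06. The submitters' processing notes name Salmon and edgeR, without versions or roles. The genome build is not given in the sources used here. Sequencing depth is unknown, since TPM do not retain it.

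Values of the 2 pools of a tank and stage were averaged, since pools of a tank are not independent. log2(TPM + 1) was fitted in limma 3.58.1 (R 4.3.3, lmFit, contrasts.fit, eBayes with trend) over 13 groups of stage and diet in 41 libraries, with 28 residual degrees of freedom and Benjamini-Hochberg adjustment over the 22028 genes that reached 1 TPM in 3 or more libraries. Of all values, 20.7% were 0. The tests were checked on simulated data. Stage steps and differences from BW0 weight both diets equally. Tables were made with pandas 2.3.3 and numpy 2.4.6 in Python 3.11.15 and data.table (version 1.17.8) in R, and figures with matplotlib 3.10.9. Tank and stage come from the sample labels. The tanks were stocked from eggs of the same broodstock. The p-values measure the spread between tanks and, on the BW0 side of a difference, between pools.

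The same tank at different stages gives pairs. Deviations of a tank from its group means correlated with a mean r of 0.015 over 90 pairs of stages, with 6 pairs over 0.1, and tank as a replicate block gave a consensus correlation of 0.0348.

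The rows and the lists of mucosal and marker genes were chosen with earlier results of these data known. The row called pIgR in the text has the identifier 492pIgR. All rows meeting the rule are accounted for. From the mucosal list the 6 genes with the smallest p per family of contrasts were named, and from the likeness search the 5 genes closest over libraries and the 3 closest within groups. Of these, 1 is not reported here. The ATOH1 and SPDEF rows at BW7 against BW2, MUC19 LABE_00026019, IgT1234 and sIgT fall outside this rule and were chosen after their values were seen. Lists were matched by gene name in any letter case. Of the mucosal list 83 rows were found, and names without a row, such as MUC1 and MUC6, were not analysed here. No sequences were used.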

Additional observations from a re-analysis of the deposited data

Results flagged for a closer look

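Within groups of 5 or 6 pools, 11 values of the tested rows stood far from the rest of their group, their gap to the nearest other pool being larger than Dixon's 95% limit. With 104 groups examined, chance alone would give about 1 in 20 if the values were normal and independent. Scarce rows with many zeros and pools of the same tank do not meet this. The number flagged is therefore not compared with that rate. Pools are named by tank and pool number.

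Of Muc2 LABE_00005597, pool B8 R2 of the BW2 control group had 0.0225 TPM while the other pools were at 0, pool B8 R1 of the BW4 control group had 0.248 TPM with 0.170 TPM next, and pool B7 R2 of the BW5 plankton group had 0.750 TPM with 0.409 TPM next. Of MUC5B LABE_00005601, pool B5 R3 of the BW2 plankton group had 0.123 TPM with 0.0657 TPM next, and pool B7 R2 of the BW7 plankton group had 11.1 TPM with 8.40 TPM next. Of MUC5B LABE_00087749, pool B5 R1 of the BW6 plankton group had 10.6 TPM with 5.21 TPM next.

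Of MUC2 LABE_00026018, pool R6 of BW0 was at 0 with 0.346 TPM next, and pool B10 R2 of the BW5 control group had 4.50 TPM with 1.03 TPM next. Of MUC2 LABE_00062112, pool B8 R2 of the BW6 control group had 12.8 TPM with 6.56 TPM next. Of pIgRlike, pool R8 of BW0 had 0.251 TPM with 0.0497 TPM next, and pool B9 R1 of the BW4 plankton group had 0.710 TPM with 0.188 TPM next. pIgR and Muc2 LABE_00062115 had none.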

How the results depend on the processing

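Diet differences among the 8 tested rows numbered 0 of 48. The number was 1 with a pseudocount of 0.1 (MUC5B LABE_00005601 at BW2), and 1 with no filter on low values, with each pool as its own replicate and without the 9 pools that correlated more closely with another group (each time Muc2 LABE_00005597 at BW6, adjusted p = 0.0292, 0.00684 and 0.0174). It was 0 under every other alternative run, without each tank in turn included.

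Stage steps numbered 23 of 48. The number was 21 to 28 under the alternatives, 21 to 26 without each tank in turn and 23 to 24 without each BW0 pool in turn. With tank as a replicate block it was 24, with all 23 kept, MUC5B LABE_00087749 at BW4 added and no diet call changed. Differences from BW0 numbered 31, 30 with the block, which lost Muc2 LABE_00005597 at BW4 (adjusted p = 0.0519), and 26 to 36 under all alternatives. BW7 against BW2 gave 8 of 8, and 7 without tank B5 or B10 or without B10 at BW7. No called result changed sign. With the pseudocount of 0.1, changes of rows under 1 TPM grew, for instance 2.23 in place of 0.79 for MUC5B LABE_00005601 at BW3.

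Averaging log2 values over pools, and leaving out tank B10 at BW7, were chosen after seeing the data. The contrast of feeding periods gave 0 of 8 under every alternative run. TPM without depth set no detection limit for the scarce rows.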

Other observations

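Liver markers (APOA1, TTR, FGA, FGB and TF, 6 rows) had a mean summed level of 477 TPM at BW0, 319 at BW2, 499 at BW3, 567 at BW4, 1220 at BW5, 988 at BW6 and 1792 TPM at BW7. The higher level at BW5 than at BW4 came in the same step as the rise of the MUC5B rows, and its part in that rise was not tested.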
